A study of Mus musculus with 6 samples.

Results

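The 9 genes described here, *Zscan4a* to *Zscan4f*, *Tcstv1*, *Tcstv3* and *Zfp352*, are genes of the 2-cell-like state, taken by name from the 55385 genes of a count table of mouse embryonic stem cells (mESCs). They were chosen by their counts in these libraries, which were already known, so their levels are given as a description and without a test. Fits over all genes include them, and their calls there are a description too. RNA was sequenced from unedited cells (WT) and from CRISPR-Cas9 edited cells with a heterozygous (het del) or homozygous (hom del) deletion of the *Wnt6* region, 2 libraries of each genotype. All were grown with leukemia inhibitory factor on CD1 feeder cells, and the parent line, G4, comes from an F1 hybrid of mouse strains. The cells were edited by transfection and picked as individual clones, and the labels do not say how many clones a genotype stands for. They also do not say whether the 2 libraries come from separate cultures, so the spread between them, and any p-value that rests on it, may be technical.

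The 2-cell-like state is a rare and passing condition in which a few cells of an mESC culture transcribe genes that are normally on when the zygotic genome is first activated. *Zscan4* genes are its best known markers. They encode proteins with a SCAN domain and zinc fingers that are linked to telomere maintenance and genome stability in mESCs. *Tcstv1* and *Tcstv3* belong to a small family expressed at the 2-cell stage that is also linked to telomere length, and *Zfp352* encodes a zinc finger protein transcribed at the same stage. Cells enter the state when the transcription factor Dux is expressed, and Dppa2 and Dppa4 act upstream of it, while Trim28, the CAF-1 histone chaperone, the noncanonical Polycomb complex PRC1.6 and other repressors hold it down. In bulk RNA a change in the number of such cells and a change in the RNA each one holds cannot be told apart.

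The *Zscan4* genes are near-identical copies, which bears on every count below. Their annotated transcripts were between 96.6% and 99.7% identical in 15 pairs, with a median of 97.6%. The most informative 60 coding bases, in exon 4 of *Zscan4c* (GRCm38, chr7:11009072-11009131, plus strand), held 9 positions at which the copies differ. They are printed to show what separates one copy from another. In *Zscan4c* the capitals mark those 9 positions, and in the others they mark each base that differs from *Zscan4c*.
Zscan4c: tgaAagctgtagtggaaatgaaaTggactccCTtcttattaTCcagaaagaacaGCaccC
Zscan4a: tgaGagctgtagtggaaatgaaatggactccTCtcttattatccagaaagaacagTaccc
Zscan4b: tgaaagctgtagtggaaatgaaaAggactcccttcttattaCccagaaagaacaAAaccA
Zscan4d: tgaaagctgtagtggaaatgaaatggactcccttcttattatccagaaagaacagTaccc
Zscan4e: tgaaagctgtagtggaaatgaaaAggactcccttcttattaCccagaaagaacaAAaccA
Zscan4f: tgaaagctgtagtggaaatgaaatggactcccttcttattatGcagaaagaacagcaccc
*Zscan4d* and *Zscan4f* each differed from *Zscan4c* at 1 base in this window, *Zscan4a* at 4, and *Zscan4b* and *Zscan4e* at 5. The last pair carried the same letters here.

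How much of a transcript can be told from all other genes was counted from the annotation, as the share of stretches of 50 bases found in no other annotated gene. This share was 50.4% for *Zscan4d* and 36.4% for *Zscan4a*. It was 14.5% for *Zscan4c*, 9.65% for *Zscan4b*, 8.43% for *Zscan4e* and 4.66% for *Zscan4f*. *Tcstv1*, *Tcstv3* and *Zfp352* were far more distinct, at 83.2%, 68.6% and 92.9%. With stretches of 100 bases the *Zscan4* shares ran from 10.5% for *Zscan4f* to 70.4% for *Zscan4d*. The read length and the treatment of reads that match several places are not given in the sources used here, so counts of single *Zscan4* copies are uncertain. Their sum does not depend on which of the summed copies a read was given to. Reads that were dropped, or that are shared with further *Zscan4* copies outside the sum (named below), bear on the sum too.

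**Figure D1:**
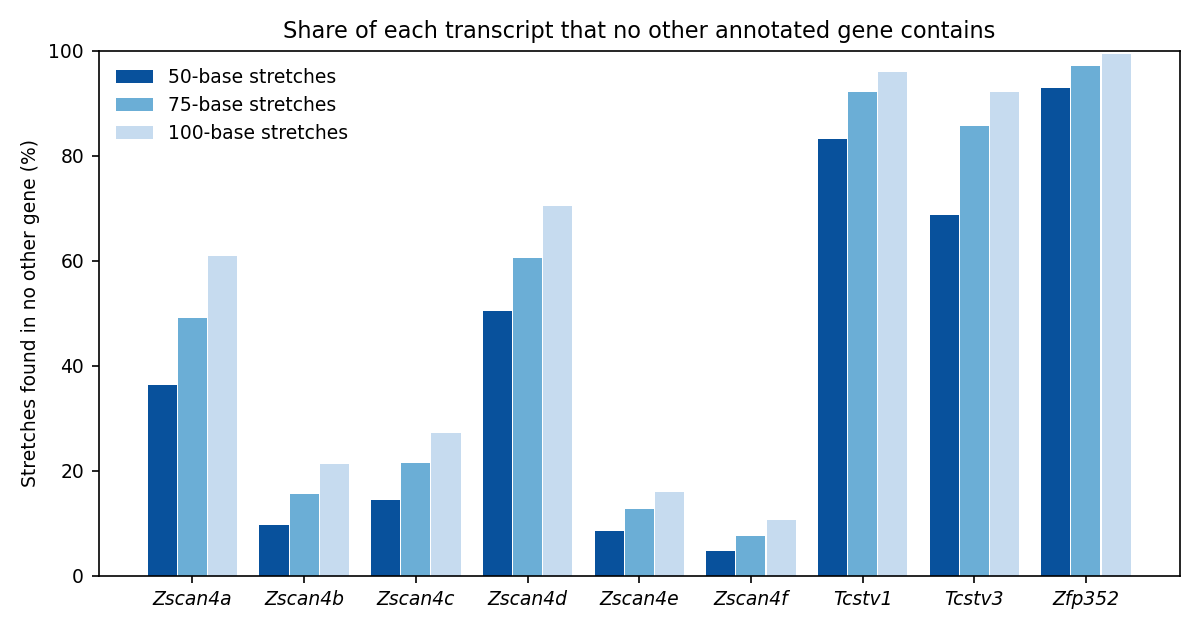
Bars give, for each of the 9 genes on the horizontal axis, the percent of transcript stretches of 50, 75 or 100 bases found in no other annotated gene. *Zscan4f*, *Zscan4e*, *Zscan4b* and *Zscan4c* have the shortest bars, and *Zfp352* the tallest at 50 bases, with 92.9%.

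The 6 *Zscan4* genes lie within 608 kb of chromosome 7 (10794242 to 11402318). *Zscan4a* (10794242 to 10799057, minus strand) is annotated as an unprocessed pseudogene, and *Zscan4b* (10900740 to 10905050, minus), *Zscan4c* (11005745 to 11010547, plus), *Zscan4d* (11161374 to 11166159, minus), *Zscan4e* (11306378 to 11310682, minus) and *Zscan4f* (11397915 to 11402318, plus) as protein coding. *Tcstv1* (119893388 to 119894785, minus) and *Tcstv3* (120316878 to 120318178, plus) lie on chromosome 13, and their transcripts were 87.7% identical. *Zfp352* lies on chromosome 4 (90218820 to 90225702, plus). No annotated gene overlaps any of the 9.

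The RefSeq promoter table for GRCm38.p6 held 5 of the 9 genes, *Zfp352* and *Zscan4b*, *Zscan4c*, *Zscan4d* and *Zscan4f*. The 250 bases before the start of *Zscan4c* (chr7:11005495-11005744, plus strand) are printed as an example of the 4 *Zscan4* promoters. This copy was picked because it is past the edgeR threshold in hom del against WT, as given below. That call is on a gene chosen by its counts and does not set its promoter apart from the others. Capitals mark TGATAGAATCA, which begins 114 bases before the start, and TATAAA, which begins 54 bases before it.
Zscan4c promoter: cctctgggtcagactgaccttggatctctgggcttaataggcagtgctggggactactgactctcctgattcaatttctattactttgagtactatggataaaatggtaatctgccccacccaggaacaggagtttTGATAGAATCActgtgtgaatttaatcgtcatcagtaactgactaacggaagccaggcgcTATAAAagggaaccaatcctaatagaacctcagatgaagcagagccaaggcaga
The 4 *Zscan4* promoters were between 94.7% and 99.6% identical. The 250 bases before the start were searched on both strands in 32851 promoters. The letters TGATTNAATCA, a motif bound by Dux, were in 0 of the 5 member promoters and in 0.0304% of all. With the fifth base left free (TGATNNAATCA, a form chosen after the sequences were seen) the motif was in all 4 *Zscan4* promoters and in 0.177% of all, 91 to 125 bases before the start. Those 4 also held TATAAA, found in 12.4% of all promoters, and CCAAT, found in 33.8%. The *Zfp352* promoter held none of these motifs.

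The libraries held between 23813912 and 28964706 counts, so 3 counts, the limit that a count of 0 allows, correspond to between 0.103 and 0.131 CPM, the count scaled to the library total after a TMM adjustment for its composition. Intervals and this limit cover counting error only. The *Wnt6* gene had 11 and 13 counts in WT, 6 and 4 in het del and 0 and 0 in hom del libraries, and its neighbour *Cdk5r2* had 30 and 27, 16 and 17, and 1 and 2, so both follow the labelled genotypes. The pluripotency genes that mark mESCs were abundant, with *Pou5f1*, a core pluripotency factor, at 985 ± 10.4 CPM in WT (SD, n = 2). Markers of feeder fibroblasts were present as well, at a summed 2240 CPM in both WT libraries.

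All 9 genes were read rarely, and together they had between 18 and 42 counts per library. Per kilobase of transcript, *Zscan4a* had the highest mean level over the 6 libraries, 0.127 CPM per kb. *Zscan4c* and *Zscan4d* followed at 0.102 and 0.101, and *Tcstv3* at 0.0745. *Zscan4f*, *Zscan4e* and *Tcstv1* lay between 0.0293 and 0.0359, *Zfp352* was at 0.0144 and *Zscan4b* at 0.0113. In total *Zscan4a* had 44 counts, *Zscan4c* and *Zscan4d* 35 each and *Zscan4f* 11, while the other 5 had from 3 to 9. Between no neighbours in this order did the ratio of levels have a 95% counting interval that left out 1. The order also takes no account of how much of each transcript is distinct. Over stretches of 50 bases found in no other gene, *Zscan4f* had 11 counts over 83, and *Zscan4c* 35 over 322. *Zscan4e* had 8 over 143, *Zscan4a* 44 over 811, *Zscan4d* 35 over 1121 and *Zscan4b* 3 over 167. Scaled in this way *Zscan4f* came first and *Zscan4c* second, so the order of the *Zscan4* copies is uncertain. Only *Zscan4a* and *Zscan4c* had at least 10 counts in 2 libraries, and both reached this through the hom del libraries alone.

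*Zscan4c*, the copy most often used to mark the state, had 2 and 3 counts in WT, 5 and 4 in het del and 10 and 11 in hom del libraries. The 3 genotypes did not overlap, and het del libraries lay between the other genotypes. WT and het del were separated only by 3 against 4 counts, near the limit of 3. By CPM, both het del libraries lay above both WT libraries in 17.2% of all genes with any count. Both hom del libraries lay above WT in 19.0% and above het del in 19.8%. The share of genes with this order over all 3 genotypes was not counted. The level of this copy was 0.0930 ± 0.0348 CPM in WT, 0.175 ± 0.0360 in het del and 0.429 ± 0.00924 in hom del (SD, n = 2 each). The ratio of the levels was 4.69 between hom del and WT, with a 95% counting interval from 1.72 to 15.9. Between hom del and het del it was 2.45 (1.08 to 6.09), and between het del and WT 1.91 (0.575 to 7.26).

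*Zscan4a*, the copy annotated as a pseudogene, had 8 and 4 counts in WT, 5 and 3 in het del and 13 and 11 in hom del libraries. Both hom del libraries stood above all others, while WT and het del overlapped. Of all genes with any count, 19.0% had both hom del libraries above both WT libraries, and 19.8% above both het del libraries. *Zscan4a* levels were 0.215 ± 0.0825 CPM in WT, 0.157 ± 0.0625 in het del and 0.494 ± 0.102 in hom del (SD, n = 2 each). The ratio was 2.23 (1.07 to 4.90) between hom del and WT, 3.16 (1.37 to 8.13) between hom del and het del, and 0.708 (0.251 to 1.88) between het del and WT.

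*Zscan4d*, the *Zscan4* copy with the most distinct transcript, had 4 and 7 counts in WT, 3 and 6 in het del and 9 and 6 in hom del libraries. By counts its genotypes overlapped. In CPM the levels were 0.206 ± 0.0973, 0.173 ± 0.0738 and 0.311 ± 0.114 (SD, n = 2 each). The hom del to WT ratio was 1.52, and its interval from 0.654 to 3.67 includes 1. The interval of the ratio of hom del to het del, 1.75 (0.719 to 4.54), also includes it. The least distinct copy, *Zscan4f*, had 2 and 0, 1 and 4, and 2 and 2 counts, and by counts its genotypes overlapped as well. *Zscan4e* had 0 and 1 counts in WT, 1 and 1 in het del and 2 and 3 in hom del libraries, and *Zscan4b* had 0 and 0, 1 and 0, and 1 and 1. These last copies stayed at or under 3 counts in every library, apart from 4 counts of *Zscan4f* in a het del library.

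Of the 2 *Tcstv* genes, *Tcstv3* had 2 and 1 counts in WT, 0 and 0 in het del and 2 and 4 in hom del libraries. *Tcstv1* had 0 and 2 counts in WT, 2 and 0 in het del and 2 and 0 in hom del libraries, so its 3 genotypes had the same total. *Zfp352* had 0 and 1, 0 and 1, and 1 and 2 counts. At this depth no difference was detectable for *Tcstv1* or *Zfp352*, and no ratio is given for a gene at or under 3 counts in each library compared.

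**Figure D2:**
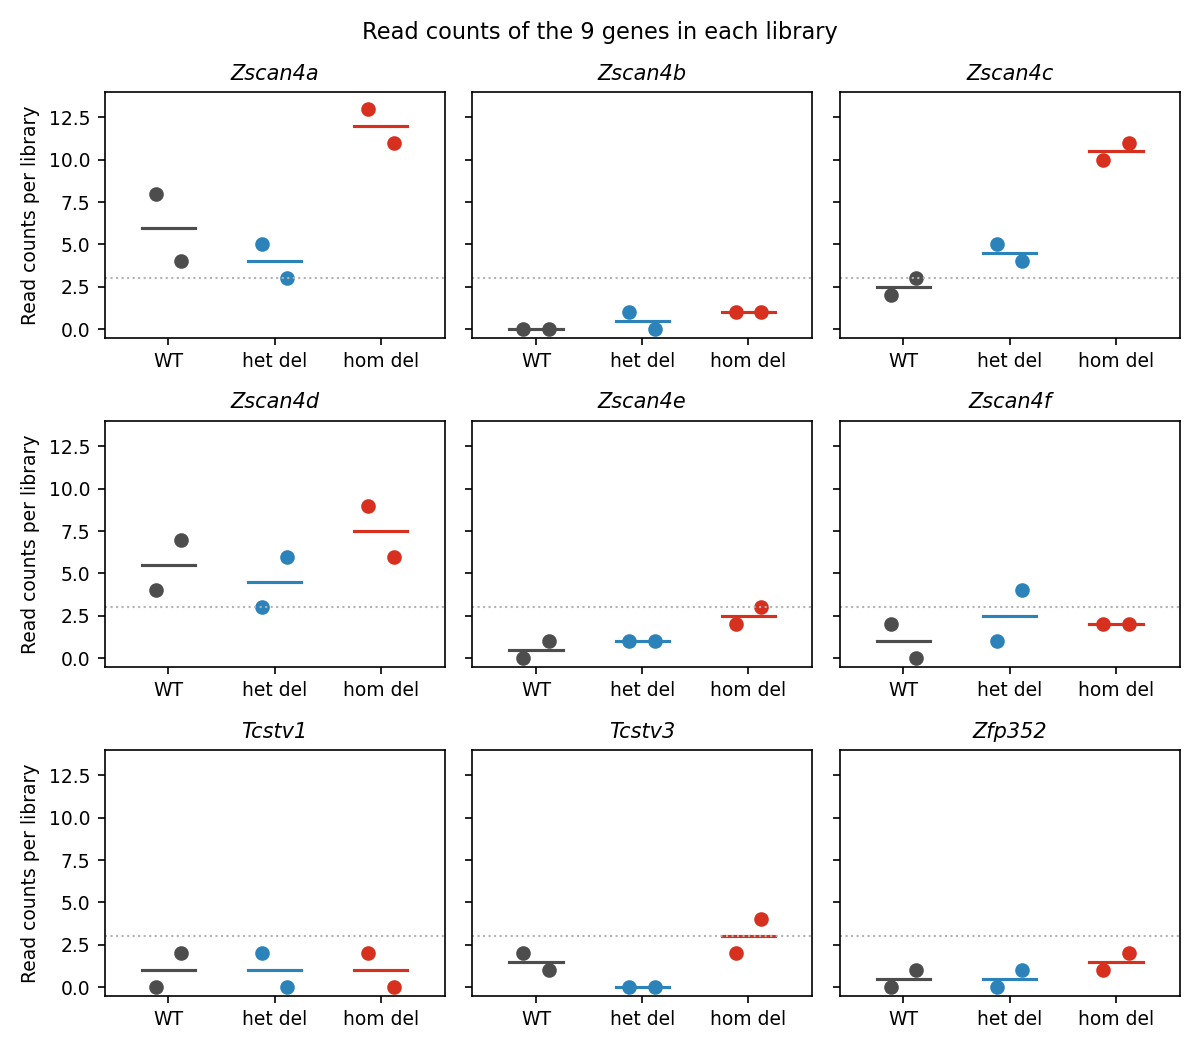
Each panel shows 1 gene, with the read counts per library on the vertical axis, 2 points per genotype and a line at their mean. The dotted line marks 3 counts, and the hom del points of *Zscan4a* and *Zscan4c*, between 10 and 13 counts, are the only ones above 9.

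Summed over the 9 genes, WT libraries had 18 and 19 counts, het del libraries 18 and 19, and hom del libraries 42 and 40. The summed level was 0.680 ± 0.0916 CPM in WT, 0.717 ± 0.00763 in het del and 1.68 ± 0.207 in hom del (SD, n = 2 each). WT and het del thus had nearly the same level, with a ratio of 1.06 and an interval from 0.655 to 1.72. The hom del level was 2.47 times that of WT (1.66 to 3.75) and 2.33 times that of het del (1.56 to 3.54). The 2 comparisons with WT share the WT libraries, and both comparisons of hom del share its libraries, so these ratios are not independent.

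The 6 *Zscan4* genes made up most of these reads, with 16 and 15 counts in WT, 16 and 18 in het del and 37 and 34 in hom del libraries. Their summed ratio was 2.56 (1.66 to 4.04) between hom del and WT, 2.20 (1.44 to 3.41) between hom del and het del and 1.16 (0.694 to 1.96) between het del and WT. *Zscan4c* took 16.1% of the *Zscan4* counts in WT (exact 95% interval 5.45 to 33.7), 26.5% in het del (12.9 to 44.4) and 29.6% in hom del (19.3 to 41.6). These intervals overlap, and a shift in the mix of copies was not tested. Without *Zscan4c* and *Zscan4a*, the remaining 7 genes had 8 and 12 counts in WT, 8 and 12 in het del and 19 and 18 in hom del libraries, a hom del to WT ratio of 2.07 (1.17 to 3.76). This sum was chosen after the values were seen.

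**Figure D3:**
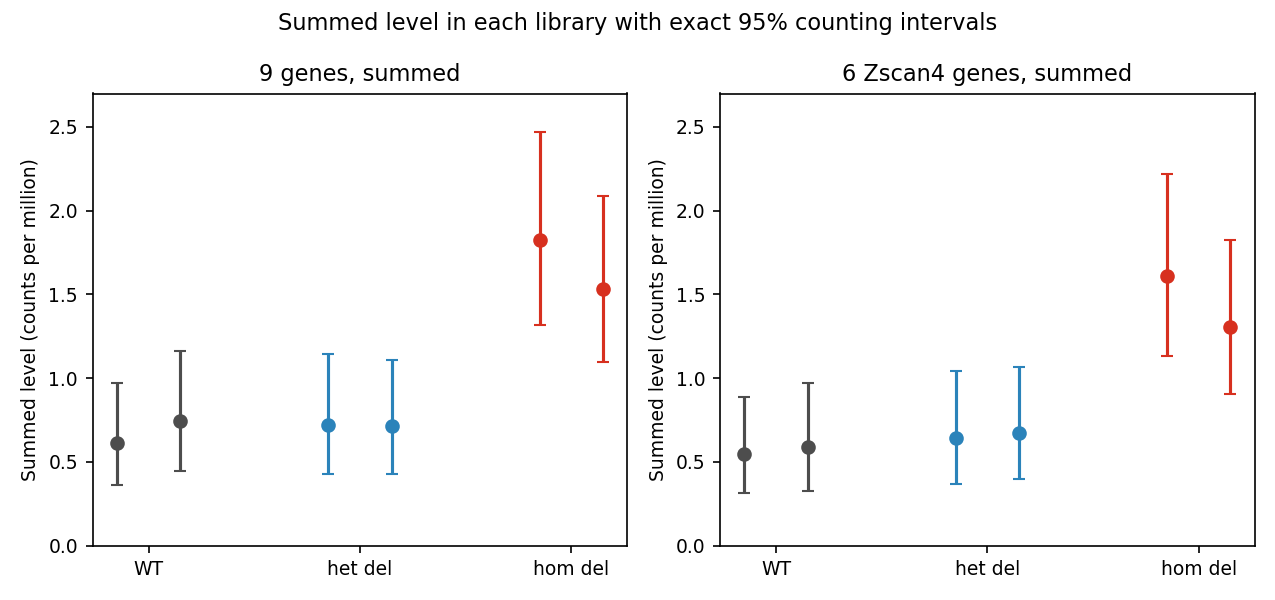
Points give the summed level in CPM of the 9 genes (left) and of the 6 *Zscan4* genes (right) in each library, and bars are exact 95% counting intervals. For the 9 genes the WT and het del points lie between 0.615 and 0.745 CPM and the hom del points at 1.53 and 1.83.

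By CPM, in which library size breaks ties of counts, both hom del libraries lay above both WT libraries for 7 of the 9 genes, and 19.0% of all 32934 genes with any count did so. For hom del above het del the numbers were 6 of 9 and 19.8%, and for het del above WT 1 of 9 (*Zscan4c*) and 17.2%. Among the 7, *Zscan4b*, *Zscan4e*, *Zscan4f* and *Zfp352* were at or under 3 counts in each library compared, as were *Zscan4e* and *Zfp352* among the 6. In an edgeR quasi-likelihood fit of all genes with any count, 1 of the 9 was past the threshold (log2 fold change beyond 1 in either direction, Benjamini-Hochberg adjusted p under 0.05) in hom del against WT, *Zscan4c*, and 1 in hom del against het del, *Zscan4a*. None was in het del against WT. Of all genes 0.219%, 0.355% and 0.0455% were past it as higher in these comparisons, and 1.13%, 0.616% and 0.103% as lower. The median fitted log2 fold change of the 9 was 1.15 in hom del against WT and 1.27 in hom del against het del, against a median of 0 over all genes. With a gene at 0 in a genotype placed at its bound against 3 counts per library, and at 0 where that bound is under 1-fold, the medians of the 9 were 1.09 and 0.91. Because the genes were chosen for these values, the counts, calls and medians support nothing further. Without WT replicate 1 or 2, or hom del replicate 1 or 2, *Zscan4c* was no longer past the threshold, and *Zscan4a* was not without any 1 of the het del or hom del libraries or among genes with at least 10 counts in all. DESeq2 gave none of the 9 an adjusted p.

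**Figure D4:**
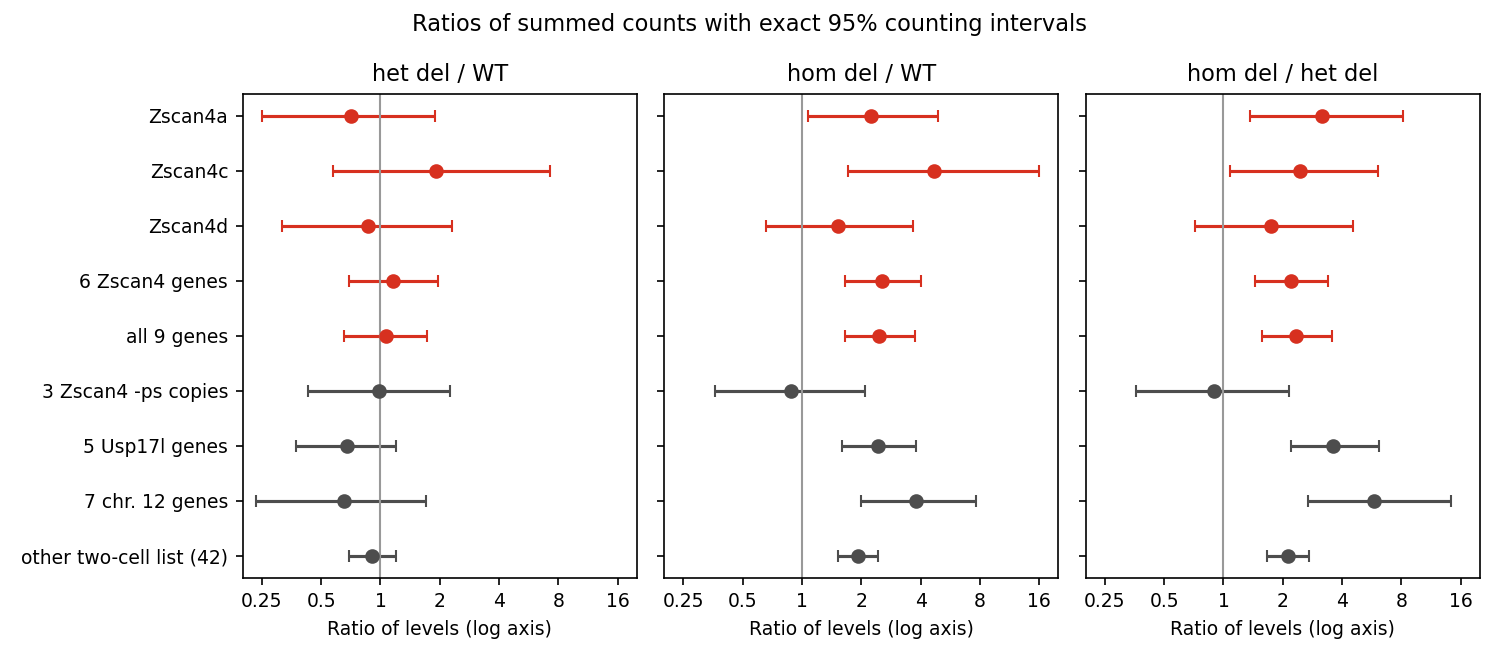
Points give the ratio of levels on a log axis for *Zscan4a*, *Zscan4c*, *Zscan4d* and sums of genes in het del against WT, hom del against WT and hom del against het del, and bars are exact 95% counting intervals. In hom del against WT the sum of the 9 genes lies at 2.47 (1.66 to 3.75) and the 3 *Zscan4* -ps copies at 0.877 (0.360 to 2.08). The intervals cover counting error only, and for the 9 genes, chosen by these counts, they are no test.

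Other genes of the 2-cell stage were taken from a list of 45, of which 42 were in the table and 33 had any count. Their summed counts were 51 and 68 in WT, 53 and 49 in het del and 89 and 116 in hom del libraries. The summed level was 2.20 ± 0.652 CPM in WT, 1.98 ± 0.206 in het del and 4.16 ± 0.409 in hom del (SD, n = 2 each), so the hom del libraries again stood above all others. The hom del to WT ratio was 1.92 (1.53 to 2.43), and the ratio of het del to WT 0.910 (0.692 to 1.20). Of the 33 genes, 26 had a fitted log2 fold change above 0 in hom del against WT and 6 below, with a median of 1.12. For the 9 of them at 0 in either genotype the fitted value depends on the prior count. With those genes at their bound as above, 20 of the 33 were above 0, 5 below and 8 at 0, and the median was 0.14. In hom del against WT 1 gene rose past the threshold (*Usp17le*), in hom del against het del 2 did (*Usp17le* and *Gm8300*), and in het del against WT 0 did. Of all genes 0.219%, 0.355% and 0.0455% were past it as higher in these comparisons. At an unadjusted edgeR p below 0.05 there were 5, 6 and 0 of the 33 in the same order, against 18.9%, 21.3% and 10.2% of all genes. DESeq2 gave none of the 33 an adjusted p in any of the 3 comparisons.

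*Usp17le*, a member of the *Usp17l* family of deubiquitinating enzymes (chromosome 7, 104768049 to 104777470), had 5 and 8 counts in WT, 6 and 2 in het del and 14 and 18 in hom del libraries. Its log2 fold change was 2.04 (SE 0.531, edgeR adjusted p = 0.00173) in hom del against het del, and 0.0111 was the adjusted p among genes with at least 10 counts in all. Against WT the change was 1.44 (SE 0.478, edgeR adjusted p = 0.0268), and with that filter the adjusted p was 0.0538. The adjusted p of this change over the alternatives ran from 0.0250 to 0.426: it was 0.426 without WT replicate 1, 0.0637 without hom del replicate 1 and 0.167 without hom del replicate 2. Against het del the range was 0.00156 to 0.158, with the highest value without het del replicate 2.

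*Gm8300* (chromosome 12, 87514316 to 87518266) had 2 and 4 counts in WT, 1 and 0 in het del and 5 and 7 in hom del libraries. The hom del libraries were highest and het del lowest. Its log2 fold change in hom del against het del was 3.36 (SE 1.19, edgeR adjusted p = 0.0373, and 0.0277 among genes with at least 10 counts in all). Over the alternatives the edgeR adjusted p ran from 0.0277 to 0.320, and the call was lost without either het del library (0.0671 and 0.320) and without either hom del library (0.0879 and 0.182). Against WT the log2 fold change was 1.12, with an edgeR adjusted p of 0.594.

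The 5 *Usp17l* genes of the list had together 16 and 17 counts in WT, 12 and 9 in het del and 32 and 40 in hom del libraries. They were grouped after the values were seen. Their hom del to WT ratio was 2.44 (1.59 to 3.80). *Usp17la* had 4 and 3, 3 and 2, and 9 and 7 counts, and *Usp17ld* was at 0 in all WT and het del libraries, with 2 and 4 counts in hom del. The 7 list genes between *Gm8300* and *Gm5662* on chromosome 12, grouped in the same way, had 6 and 7, 4 and 4, and 17 and 27 counts, a hom del to WT ratio of 3.78 (2.0 to 7.65). Their share of 50-base stretches found in no other gene ran from 2.85% for *Gm2022* to 86.5% for *Gm21319*. It was 18.7% for *Gm2016* and 22.1% for *Gm5662*, so the treatment of shared reads bears on these counts too. The remaining 30 genes of the list had 29 and 44 counts in WT, 37 and 36 in het del and 40 and 49 in hom del libraries. Their WT and hom del libraries overlapped by counts, and the ratio was 1.36 (0.988 to 1.88).

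Not all genes of this kind were highest in hom del libraries. *Arg2*, which encodes a mitochondrial arginase, had 10 and 13 counts in WT, 6 and 9 in het del and 10 and 5 in hom del libraries. *Ubtfl1*, a gene of the early embryo, had 1 and 8, 6 and 2, and 2 and 3. The 5 *Tdpoz* genes had 1 count in WT, 1 in het del and 2 in hom del libraries in all. The *Dux* copy annotated as *Duxf3* had 1 and 0, 2 and 1, and 2 and 1 counts, too few to detect a difference.

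Further *Zscan4* copies, the 3 annotated as *Zscan4-ps1*, *Zscan4-ps2* and *Zscan4-ps3*, lie in and beside the cluster, and with them the 9 *Zscan4* transcripts were 96.6% to 99.8% identical. They had together 2 and 12 counts in WT, 6 and 7 in het del and 4 and 7 in hom del libraries, and the ratio between hom del and WT was 0.877 (0.360 to 2.08). WT replicate 2 held the highest value and WT replicate 1 the lowest. When these copies were added to the 6 *Zscan4* genes, an alternative chosen after the values were seen, the libraries had 18 and 27, 22 and 25, and 41 and 41 counts, and the ratio was 2.03 (1.40 to 3.0).

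The *Zscan4* span on chromosome 7 holds 37 genes of the table, of which 27 had no count in any library. Besides the 6 *Zscan4* genes, 4 had counts: *Zscan4-ps1*, *Gm7789* with 5 and 4, 5 and 1, and 2 and 4 counts, *Gm45598* with 3 and 4, 1 and 1, and 5 and 3, and *Gm18204* with a single count. The nearest genes with counts before the span were *Zik1*, a zinc finger gene with 584 and 558, 475 and 531, and 516 and 573 counts, *Gm6900* with 8 and 12, 4 and 5, and 9 and 6, and *Nlrp4b* with 1. After it came *Gm45551* and *Gm45549* with 1 count each, and *Zscan4-ps2*. None of these neighbours had both hom del libraries above all others with more than 1 count. Over 1352 genes of chromosome 7 with at least 10 counts in 2 libraries, the median log2 ratio of hom del to WT was -0.055, and over 622 genes of chromosome 12 it was 0.007.

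Among 16949 other genes with at least 10 counts in 2 libraries, the 5 whose log2 level over the 6 libraries was most like the summed *Zscan4* level were *Virma*, *Oxct1*, *Lancl1*, *Exoc4* and *Psmc2*, with a Pearson r between 0.994 and 0.999. The 6 libraries share their 3 genotypes, and r takes no account of size. As the highest of 16949 values over 6 libraries, an r near 1 follows from the choice and is no support for a link to *Zscan4*. Between their lowest and highest library these genes differed 1.08-fold to 1.24-fold, and summed *Zscan4* 2.94-fold.

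None of 6 known activators of the state was past the threshold in any comparison by edgeR or DESeq2. At an unadjusted edgeR p below 0.05 there were 0 in het del against WT, 1 in hom del against WT and 2 in hom del against het del, and 10.2%, 18.9% and 21.3% of all genes were. *Dppa2* was at 122 ± 4.67 CPM in WT, 116 ± 2.73 in het del and 135 ± 9.60 in hom del, and *Dppa4* at 181 ± 3.03, 179 ± 4.44 and 182 ± 3.05 (SD, n = 2 each). The log2 fold change of *Dppa2* in hom del against het del was 0.22 (SE 0.0487, edgeR adjusted p = 0.000124, and 0.00333 among genes with at least 10 counts in all), short of the fold threshold. *Nelfa*, a subunit of the negative elongation factor, was at 91.7, 87.3 and 95.3 CPM, and *Trp53*, which encodes p53, at 467, 450 and 469. The summed level of the 6 was 902 ± 1.88 CPM in WT and 921 ± 26.2 in hom del (SD, n = 2 each).

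Of 25 repressors of the state none was past the threshold in any comparison by edgeR or DESeq2, and at an unadjusted edgeR p below 0.05 there were 4, 12 and 14 in the same order, against 10.2%, 18.9% and 21.3% of all genes. Their log2 fold changes in hom del against WT ran from -0.14 to 0.38, with a median of 0.04. *Trim28*, which silences endogenous retroviruses, was at 2135 ± 30.8 CPM in WT and 2188 ± 66.5 in hom del, and *Ncl*, the nucleolar protein nucleolin, at 3589 ± 82.3 and 3827 ± 78.5 (SD, n = 2 each). *Lin28a*, an RNA-binding protein, was at 776, 804 and 762 CPM, and *Rif1*, a telomere-associated replication factor, at 457, 443 and 565 in WT, het del and hom del. For *Rif1* the log2 fold change of 0.31 (SE 0.0382) in hom del against WT stayed below the threshold of 1.

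Of 14 pluripotency genes, which mark the bulk of the mESCs, none was past the threshold in any comparison by edgeR or DESeq2. At an unadjusted edgeR p below 0.05 there were 10, 5 and 11, against 10.2%, 18.9% and 21.3% of all genes. The log2 fold changes farthest from 0 were -0.39 for *Esrrb* in het del against WT and 0.53 for *Zfp42* in hom del against het del, both named after their values were seen. *Pou5f1* was at 985, 902 and 1018 CPM, *Tdgf1*, a Nodal co-receptor, at 664, 670 and 692, *Sall4* at 311, 294 and 333, and *Utf1* at 260, 219 and 252 in WT, het del and hom del. Their summed level was 3145 and 3161 CPM in WT, 2945 and 2855 in het del and 3338 and 3204 in hom del libraries. The hom del mean was thus 1.04 times that of WT and the het del mean 0.920 times, against 2.47 and 1.06 for the 9 genes.

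Feeder RNA moved with the genotypes. The summed level of 25 fibroblast markers was 2240 and 2241 CPM in WT, 1578 and 1504 in het del and 995 and 974 in hom del libraries. In hom del against WT 1.13% of all genes fell past the threshold. Of the 25 markers 17 did, with a median log2 fold change of -1.13 over the 25 and all 25 below 0. The 17 were *Acta2*, *Bgn*, *Col1a1*, *Col1a2*, *Col3a1*, *Col5a2*, *Col6a1*, *Col6a2*, *Col6a3*, *Fbln2*, *Mfap5*, *Pdgfra*, *Pdgfrb*, *Postn*, *Prrx1*, *S100a4* and *Thy1*. Of the 4 with the most counts, *Col1a1* was at 417, 279 and 172 CPM, *Bgn* at 349, 248 and 146, *Fbln2* at 311, 206 and 136, and *Col1a2* at 268, 176 and 110 in WT, het del and hom del. None was past the threshold in het del against WT by edgeR, nor any of the 20 to which DESeq2 gave an adjusted p, and in this comparison 17 of the 25, and 10.2% of all genes, had an unadjusted edgeR p below 0.05. In hom del against het del 1 of the 25, and 0.616% of all genes, fell past the threshold. It was *Twist2*, a transcription factor of mesenchyme, with 23 and 25, 30 and 26, and 9 and 13 counts. The summed level of the 25 markers in het del was 0.688 times that of WT, a step at which the 9 genes had a ratio of 1.06. The part of feeder RNA in the differences of the 9 genes was not tested.

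**Figure D5:**
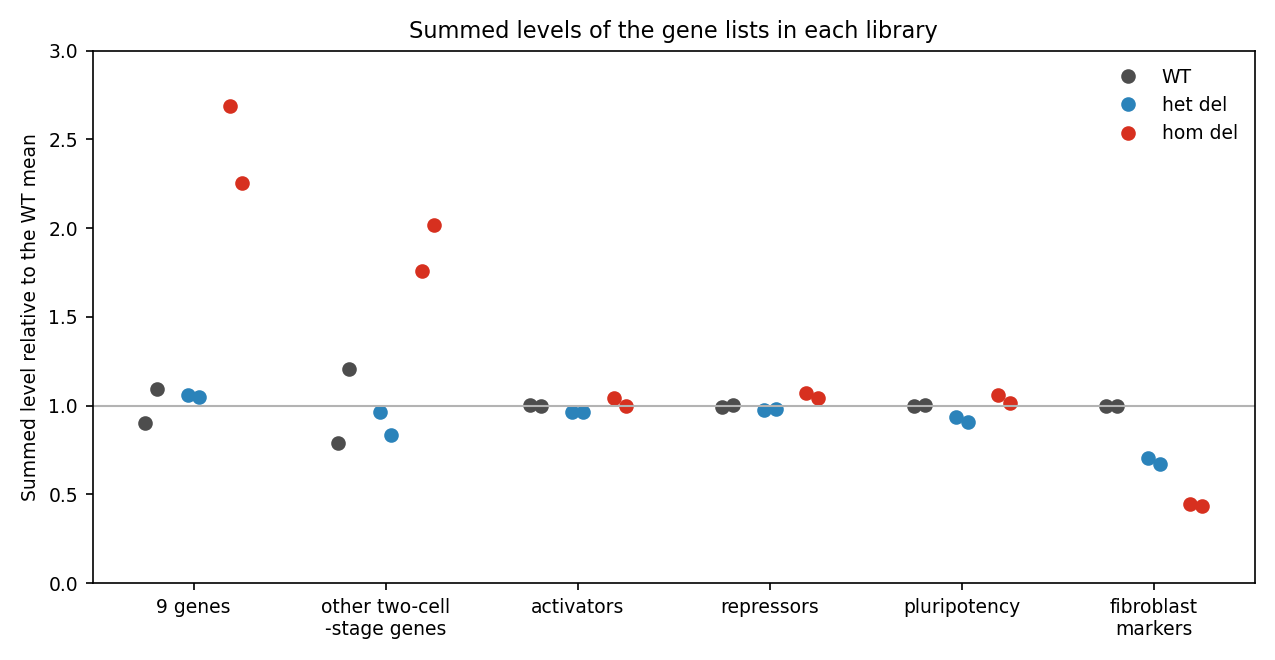
Points give, for each library, the summed level of a gene list divided by its WT mean. The hom del points of the 9 genes and of the other 2-cell-stage genes lie above those of the other genotypes, activators, repressors and pluripotency genes lie near 1, and the fibroblast markers lie at 0.688 of WT in het del and 0.439 in hom del on average.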

How the data were processed

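RNA of 6 mESC libraries, 2 per genotype, was analysed. Labels gave each library's genotype and replicate number. The methods state triplicates, and the 6 labelled libraries were used. The deposited table of the authors holds whole-number read counts per gene, without normalization. The submitters' processing notes name Trimmomatic 0.39, STAR 2.6.1d, SAMtools 1.9, featureCounts 1.6.4, DESeq2 1.22.2 and the build GRCm38 (mm10). The library kit is stranded, and whether counting used strand is not given in the sources used here. The members and all gene lists were chosen with earlier results of these data known.

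From the counts, edgeR 4.0.16 (R 4.3.3) fitted the 32934 genes with any count in 1 quasi-likelihood model of 3 genotypes with TMM. In this fit the prior degrees of freedom were infinite, so no gene has a spread of its own and small p-values of abundant genes are too small; with at least 10 counts in all they were 20.0. Ratios are of summed counts scaled by effective library size, with exact conditional 95% intervals. The pseudocount for likeness was 0.1 CPM. Genes named from a list are those past the threshold and the 4 with the most counts. Members were given in every library, with the 5 most alike genes, the genes of the *Zscan4* span and the nearest 3 with counts on each side. Sequences came from GENCODE M21 and RefSeq, aligned with MAFFT 7.526. Alternatives were DESeq2 1.42.0, other size factors, total counts, 2 filters on low counts, only the libraries compared, no fold-change threshold, the replicate number as a block and each replicate left out. Reads of repeats were not analysed here.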

Additional observations from a re-analysis of the deposited data

Results flagged for a closer look

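Of the listed genes, 3 were past the threshold, with its log2 fold change beyond 1, when the deletions were tested against each other in edgeR. This is a test of the difference between their changes from WT. Without the fold-change threshold 45 of the listed genes were past it, so the others are not shown to be alike. *Usp17le* was higher in hom del than in het del by a log2 fold change of 2.04 (SE 0.531, edgeR adjusted p = 0.00173), and *Gm8300* by 3.36 (SE 1.19, edgeR adjusted p = 0.0373). Both hom del libraries stood above both het del libraries for each. *Twist2*, a fibroblast marker, was lower in hom del, with a log2 fold change of -1.27 (SE 0.348, edgeR adjusted p = 0.00334, and over 12 alternatives with an adjusted p 0.00165 to 0.0869). For *Twist2* the highest values came without het del replicate 1 (0.0869) and without hom del replicate 1 (0.0622), where the call was lost. DESeq2 gave none of the 3 an adjusted p.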

How the results depend on the processing

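The summed log2 ratio of the 9 genes was 1.31 in hom del against WT, 1.23 in hom del against het del and 0.08 in het del against WT. A pair of sums chosen after seeing the data moved it by more than the spread between replicates: with the 6 *Zscan4* genes and the 3 -ps copies it was 1.004 and 0.88 in the hom del comparisons, and with the 7 genes other than *Zscan4c* and *Zscan4a* 1.03 and 0.98. The other alternatives to these sums moved them by less than that spread. Leaving out each replicate gave 1.17 to 1.45, 1.10 to 1.35 and -0.05 to 0.22, the lowest of the last without WT replicate 1. Of the listed genes 0 were past the threshold in het del against WT, 18 in hom del against WT and 3 in hom del against het del. The lists had 33, 6, 25, 14 and 25 genes in the fit. Of the 18, 17 were fibroblast markers. Of all genes 0.0455%, 0.219% and 0.355% were past it as higher and 0.103%, 1.13% and 0.616% as lower. Without the fold-change threshold the listed genes past it were 24, 30 and 45. Of all 32934 genes 439, 1777 and 2162 were then higher and 672, 1972 and 2249 lower. DESeq2 gave 0 of the listed genes in hom del against het del, where the 3 genes called by edgeR had no adjusted p. Each replicate left out gave 0 to 0, 16 to 18 and 1 to 3, with 1 without hom del replicate 1. Of 315 alternative fold changes of single members, 13 had the other sign.

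Over all genes DESeq2 called 3 higher and 8 lower in het del against WT, 12 and 186 in hom del against WT and 25 and 33 in hom del against het del, against 15 and 34, 72 and 372, and 117 and 203 by edgeR. Genes with at least 10 counts in 2 libraries gave 7 and 21, 46 and 316, and 84 and 152. With total counts only, the split was 18 and 30, 56 and 438, and 93 and 292. With the replicate number as a block they were 12 and 27, 51 and 335, and 87 and 162. Taken within same-numbered libraries and averaged, the summed log2 ratios of the 9 genes were 0.08, 1.31 and 1.223. In the replicate block fit the listed genes past the threshold were 0, 17 and 2, and *Zscan4a* was not past it in hom del against het del. The adjusted p was 0.0513 for *Usp17le* in hom del against WT and 0.0894 for *Gm8300* in hom del against het del. Same-numbered libraries did not deviate together (correlations across genes 0.017, -0.097 and 0.0098), and the labels do not say whether the numbers pair the samples.

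Of the 9 genes 5 had under 10 counts in all, and counts of single *Zscan4* copies depend on how reads shared between copies were treated, which is not given in the sources used here.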
